A study of Saccharomyces cerevisiae with 21 samples.

Results

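The COS genes are a family of the budding yeast Saccharomyces cerevisiae whose members lie close to chromosome ends. They were taken by name from a table of transcript levels: 10 names were listed (COS1 to COS8, COS10 and COS12) and 9 were found among the 6407 genes of the table. COS12 (YGL263W) was not analysed here, and COS9 (YKL219W), which was not on the list, was used for comparison. The family was chosen by measured levels: in these same libraries COS8 and COS10 had been seen to be low in SNF2 compared with SWI3, the wild types, and COS8 to be high in snf2del. Differences that involve SNF2 or snf2del, and those across the 2 sets of strains, are therefore given as descriptions without a test, and tests are given for the comparisons within the SWI3 strains and between the 2 snf2 point mutants. The SWI3 wild type was also one side of the comparison in which the family was noticed.

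Cos proteins are membrane-spanning proteins of the endosome that gather other membrane proteins, once these carry ubiquitin, for sorting into the multivesicular body, from which they reach the vacuole for breakdown. Their genes sit in the subtelomere, next to the repeated X and Y' elements, where the Sir proteins can silence transcription, and the silencing enzyme Sir2 needs NAD to work. Swi/Snf is an ATP-driven complex that slides or evicts nucleosomes, with Snf2 as its ATPase and Swi3 as a structural subunit.

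Polyadenylated RNA was sequenced from 21 libraries of strain background W303, in 7 groups of 3, collected in mid-log growth in YPD, a rich medium with glucose, each replicate on another day. In one set every strain carries swi3Δ and a construct at the marker LEU2: SWI3::LEU2 (here SWI3, the wild type), swi3-E815X::LEU2 (swi3-E815X) or LEU2 alone (swi3del). In the other set every strain carries snf2Δ with SNF2::LEU2 (SNF2, the wild type), snf2-W935R::LEU2, snf2-Q928K::LEU2 or LEU2 alone (snf2del). The wild types are thus deletion strains with a restored copy, and the labels do not say whether the replicates of a group are independent transformants. Levels are in TPM, a level per transcript length that is scaled to a fixed total in each library. Read numbers cannot be had from it, and the depth behind each value is unknown. The RNA of SWI3 stood at 37.1 ± 1.38 TPM (SD, n = 3) in SWI3 and 0.127 ± 0.0601 in swi3del. LEU2 RNA stood at 136 and 151 TPM on average in swi3del and snf2del. It stood at most at 0.552 TPM in any library of the other 5 groups, although the labels name LEU2 in every strain. The deletions thus differ from these 5 groups in LEU2 RNA as well as in having no restored gene. Every comparison of swi3del or snf2del with any of the 5 carries this difference, and its part in the COS levels was not tested. SNF2 RNA was not analysed here. TPM values are shares of the RNA of a culture, so a change in the fraction of cells that use a gene and a change in RNA per cell cannot be told apart.

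The members do not give 9 independent measurements, because their sequences overlap so far that short reads can fit several of them. To show how close they are, a stretch of 60 coding bases, aligned over the family, is printed from the R64 reference (RefSeq), 5′ to 3′ on the coding strand. Capitals mark bases that differ from COS1, and COS9 is added as a more distant relative.
COS1 chrXIV:8668-8727 (+): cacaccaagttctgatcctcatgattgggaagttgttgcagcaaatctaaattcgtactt
COS2 chrII:811082-811141 (-): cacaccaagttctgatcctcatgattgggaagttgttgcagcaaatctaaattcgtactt
COS3 chrXIII:7582-7641 (+): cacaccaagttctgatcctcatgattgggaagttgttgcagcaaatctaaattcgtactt
COS4 chrVI:6764-6823 (+): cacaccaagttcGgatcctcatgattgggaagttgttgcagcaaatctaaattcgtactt
COS5 chrX:743602-743661 (-): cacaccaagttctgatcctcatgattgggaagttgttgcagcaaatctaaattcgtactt
COS6 chrVII:1082332-1082391 (-): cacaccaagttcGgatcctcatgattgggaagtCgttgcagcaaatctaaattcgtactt
COS7 chrIV:2140-2199 (+): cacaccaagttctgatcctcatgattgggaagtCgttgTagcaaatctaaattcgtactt
COS8 chrVIII:6739-6798 (+): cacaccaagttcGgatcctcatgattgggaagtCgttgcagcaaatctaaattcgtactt
COS10 chrXIV:780233-780292 (+): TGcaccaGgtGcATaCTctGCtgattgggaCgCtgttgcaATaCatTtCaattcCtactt
COS9 chrXI:14907-14966 (+): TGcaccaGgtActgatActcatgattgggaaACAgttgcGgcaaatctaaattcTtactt
In 57 of the 60 positions the 8 genes COS1 to COS8 are identical, and no gene among them differs from COS1 at more than 2. COS10 differs from COS1 at 18 positions and COS9 at 10. Over the whole coding sequence the 28 pairs among COS1 to COS8 are between 82.3% and 100% identical (median 88.8%), and COS2 and COS3 are identical over all 1140 bases. COS10 is only between 61.0% and 63.1% identical to COS1 to COS8, with identical runs of at most 18 bases, and its protein is between 43.3% and 46.9% identical to theirs.

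What this means for reads was measured as the share of windows of a coding sequence that occur once in the R64 genome. With windows of 50 bases the share was 100% for COS10, 82.6% for COS8, 61.7% for COS6, between 17.0% and 33.4% for COS1, COS4, COS5 and COS7, and 0% for COS2 and COS3. With 100 bases it was 99.8% for COS8, 84.5% for COS6, and again 0% for COS2 and COS3. From coding sequence alone the rows of COS2 and COS3 therefore cannot be separate readings of 2 genes, while COS8 and COS10 are the members whose rows rest most on their own sequence. How the authors' tools assigned reads that fit several places, and how long the reads were, is not stated in the sources used here. The chromosome ends of W303 can differ from those of the reference strain, and that was not tested.

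Position splits the family in the same way. Each member is a single coding exon. COS1 (YNL336W, chromosome XIV 8330 to 9475), COS2 (YBR302C, II 810340 to 811479), COS3 (YML132W, XIII 7244 to 8383), COS4 (YFL062W, VI 6426 to 7565), COS5 (YJR161C, X 742848 to 743999), COS6 (YGR295C, VII 1081584 to 1082729), COS7 (YDL248W, IV 1802 to 2953) and COS8 (YHL048W, VIII 6401 to 7546) all start between 895 and 905 bases from the annotated telomeric region and are transcribed away from the end. COS10 (YNR075W, XIV 779916 to 781040) lies 2237 bases from its telomeric region and is transcribed towards the end. The telomeric region holds a Y' element beside COS1, COS3, COS4, COS6 and COS8 and none beside COS2, COS5, COS7 and COS10.

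**Figure D1:**
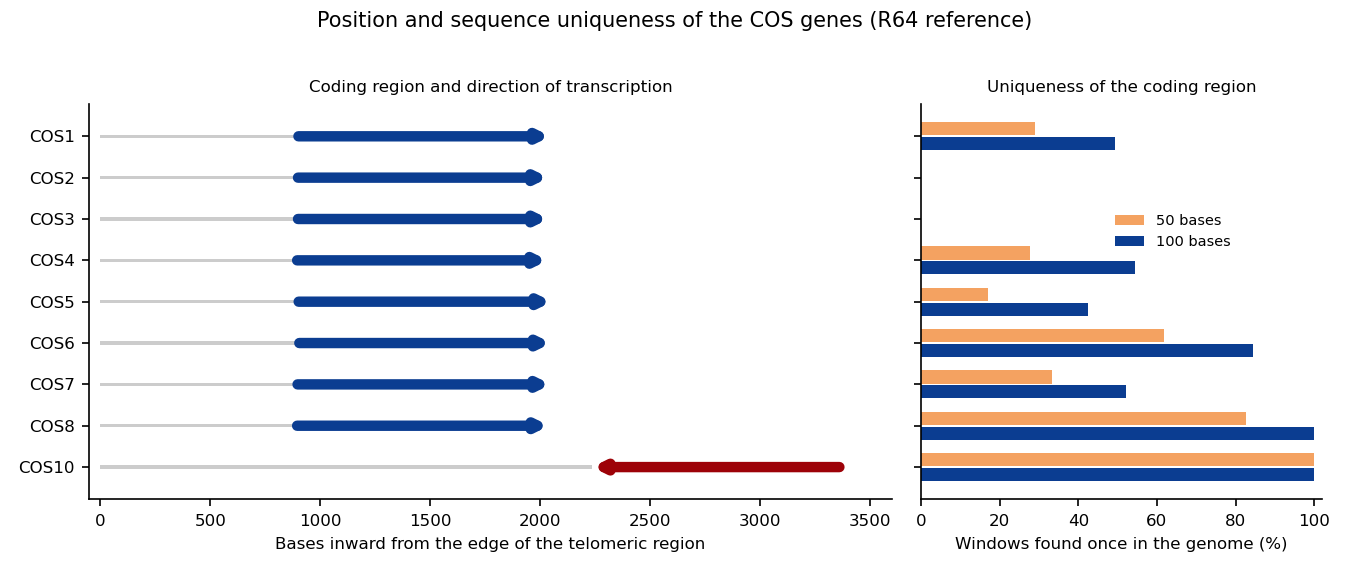
Left, the coding region of each COS gene drawn to scale as an arrow in the direction of transcription, in bases inward from the edge of the annotated telomeric region (R64). Right, the percentage of 50-base and 100-base windows of each coding region that occur once in the genome; COS1 to COS8 share one position and direction, COS10 differs in both, and COS2 and COS3 have no window of their own.

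The 250 bases before the genes are between 88.3% and 100% identical over the 28 pairs among COS1 to COS8, with a median of 93.2% against 88.8% for the coding sequence. In some pairs the coding sequence is closer than the upstream one, as in COS1 and COS4 (95.8% against 89.1%). The windows of COS1, COS8 and COS10 are printed here because the level of COS8 lay far below that of COS1 in the SNF2 wild type although both have nearly the same upstream sequence. Each runs from 250 bases before to 50 bases after the first coding base, in R64, 5′ to 3′ in the direction of the gene, and capitals mark matches to 2 of the motifs searched on both strands, TATAAA and AGGGG.
COS1 chrXIV:8080-8379 (+): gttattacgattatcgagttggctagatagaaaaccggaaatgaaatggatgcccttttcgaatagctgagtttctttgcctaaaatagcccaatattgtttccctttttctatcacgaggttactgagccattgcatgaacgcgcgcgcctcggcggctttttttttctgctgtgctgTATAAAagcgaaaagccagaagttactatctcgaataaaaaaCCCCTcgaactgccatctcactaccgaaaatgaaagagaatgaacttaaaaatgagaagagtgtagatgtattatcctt
COS8 chrVIII:6151-6450 (+): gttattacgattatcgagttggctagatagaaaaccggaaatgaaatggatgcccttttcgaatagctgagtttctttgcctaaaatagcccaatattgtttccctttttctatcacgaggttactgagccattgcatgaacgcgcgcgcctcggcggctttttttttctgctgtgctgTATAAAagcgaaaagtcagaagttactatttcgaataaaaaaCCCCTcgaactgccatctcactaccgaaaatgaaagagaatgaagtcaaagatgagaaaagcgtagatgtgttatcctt
COS10 chrXIV:779666-779965 (+): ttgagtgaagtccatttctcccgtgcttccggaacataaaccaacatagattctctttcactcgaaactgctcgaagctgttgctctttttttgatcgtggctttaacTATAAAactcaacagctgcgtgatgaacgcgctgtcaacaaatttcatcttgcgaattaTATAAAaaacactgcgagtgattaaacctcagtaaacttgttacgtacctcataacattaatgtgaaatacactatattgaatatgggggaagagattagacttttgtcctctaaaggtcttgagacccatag
Over the 250 upstream bases COS8 and COS1 are 99.2% identical, although their coding sequences are 84.0% identical. TATAAA was found in the windows of 9 of 9 members, with 2 matches in COS10, and in 45.2% of the windows of all 6001 protein-coding genes. AGGGG, the core of the stress response element, was found in 8 of 9 members, COS10 being without it, and in 21.6% of all windows. TTAGGG (6.8% of all windows) and TTACCCG (7.1%), a sequence bound by Reb1, had a match in 0 of 9. The upstream 250 bases of COS10 are between 46.4% and 49.1% identical to those of COS1 to COS8.

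All 9 members were expressed in every group, and all passed the filter of at least 1 TPM in 3 libraries. COS6 had the highest level of the family in each of the 7 groups, from 92.3 ± 3.18 TPM in SNF2 to 411 ± 32.4 in snf2del. COS4 had the lowest mean level among COS1 to COS8 in each of the 7 groups, with 16.6 ± 1.03 TPM in SWI3 and 64.9 ± 0.134 in swi3del, and in SNF2 it stood at 11.1 ± 0.718 beside 11.7 ± 4.28 for COS8. The level summed over the 9 members was 235 ± 21.9 TPM in SNF2, 431 ± 9.16 in SWI3, 439 ± 14.4 in snf2-W935R, 529 ± 34.3 in swi3-E815X, 679 ± 8.78 in snf2-Q928K, 1321 ± 52 in swi3del and 1382 ± 68.9 in snf2del. The family thus had its lowest level in one of the 2 wild types and its highest in the 2 deletions, which overlapped.

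The order of the groups was the same for nearly all of COS1 to COS8. SNF2 was lowest in each of them, followed by SWI3 and snf2-W935R, whose libraries overlapped except in COS7, then swi3-E815X, snf2-Q928K and the 2 deletions. The deletions overlapped except in COS2 and COS5, where snf2del was higher. For COS10 the order was SNF2, snf2-W935R, swi3-E815X, SWI3, and then snf2-Q928K, swi3del and snf2del, which overlapped between 42.5 and 56.4 TPM. COS10 was the one member whose level in snf2-Q928K reached that of the deletions and whose level in swi3-E815X was below SWI3.

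**Figure D2:**
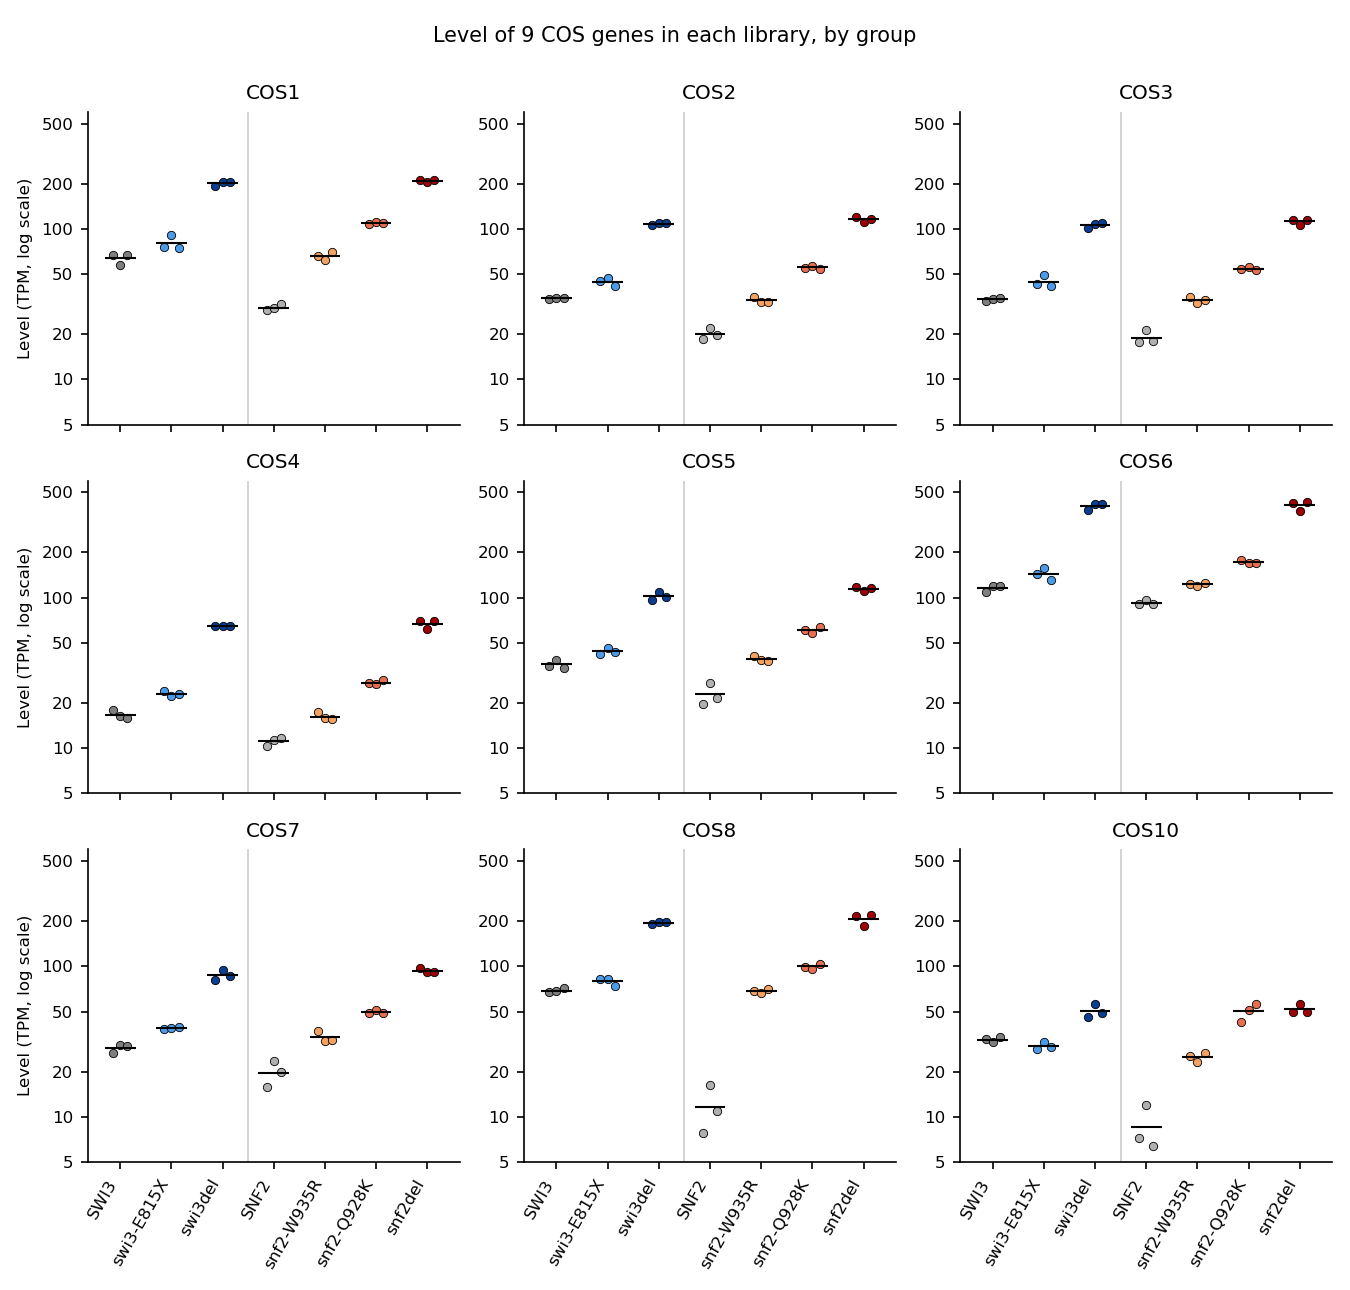
Level of each COS gene in every library, in TPM on a log axis, with the 3 libraries of a group as points and their mean as a line; the SWI3 strains stand left of the vertical line and the SNF2 strains right. In COS1 to COS7 the groups step up from SNF2 to the deletions, COS8 and COS10 stand far lower in SNF2 than in the other groups, and COS10 spans a smaller range from SWI3 to swi3del.

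RNA of the whole family was higher in swi3del, which differs from SWI3 in LEU2 RNA as well as in having no restored SWI3. The question here is what the cell's RNA looks like without the structural subunit of Swi/Snf. COS6 stood at 109, 119 and 120 TPM in the SWI3 libraries and at 379, 418 and 417 in swi3del. COS8, with the most sequence of its own among COS1 to COS8, went from 67.2, 68.4 and 71.3 TPM to 192, 196 and 198, a 2.83-fold difference of the means. COS10 went from 32.7, 31.5 and 33.7 TPM to 46.4, 56 and 49.1, a 1.55-fold difference. The groups did not overlap in any of the 9 members, as was so, in the higher direction, for 49.0% of all genes and, in the lower direction, for 25.8%.

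With limma on log2(TPM + 1), a scale that understates changes of low genes, 9 of 9 members rose, where 47.4% of the 6395 genes tested were called higher and 24.3% lower. Under median-ratio scaling the calls over all genes were split 2305 higher and 2273 lower in place of 3029 and 1554, the median difference over all genes moved from 0.23 to 0.01, and all 9 members stayed higher. The median difference of the members was 1.61, against 0.23 for all genes. COS4 rose by 1.91 ± 0.08 (SE; adjusted p = 1.18e-09), COS6 by 1.80 ± 0.08 (adjusted p = 2.59e-09), COS1 by 1.65 ± 0.09 (adjusted p = 1.97e-08) and COS8 by 1.49 ± 0.07 (adjusted p = 3.06e-09). COS2, COS3, COS5 and COS7 rose by between 1.48 and 1.63. COS10 rose by 0.61 ± 0.09 (adjusted p = 4.38e-05), less than any other member, and by 0.38 under median-ratio scaling. COS9, in the same comparison, rose by 1.03 ± 0.07 from 27.9 ± 1.25 to 57.9 ± 1.39 TPM.

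The allele swi3-E815X gave much smaller differences from SWI3. COS4 stood at 17.8, 16.3 and 15.8 TPM in SWI3 and at 24.0, 22.0 and 22.7 in swi3-E815X. COS7 went from 26.7, 29.9 and 29.6 TPM to 38.4, 38.8 and 39.8. In both genes every mutant library was above every wild-type library. COS8 stood at 82.0, 82.8 and 74.1 TPM in swi3-E815X, all above the SWI3 libraries (8 of 9 members were apart and higher, with 10.4% of all genes), and COS10 at 28.3, 31.5 and 29.2, all below them (18.3% of all genes were apart and lower), the gap to the lowest SWI3 library being narrower than the spread within either group.

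By limma 7 of 9 members rose, where 3.06% of all genes were called higher and 5.77% lower. The 7 are COS1 to COS7, with differences between 0.28 and 0.44, the largest in COS4 (0.44 ± 0.08, adjusted p = 0.00256) and COS7 (0.43 ± 0.08, adjusted p = 0.00348). COS8 differed by 0.20 ± 0.07 (adjusted p = 0.0912) and COS10 by -0.14 ± 0.09 (adjusted p = 0.396), and neither passed the test. Because COS1 to COS7 share reads, the 7 calls are not 7 separate observations. The count was 4 without SWI3 replicate 1, SWI3 replicate 3, swi3-E815X replicate 1 or swi3-E815X replicate 2, COS1, COS5 and COS6 being lost each time. Without SWI3 replicate 2 it was 5 (COS1 and COS6 lost), and without swi3-E815X replicate 3 COS5 was lost and COS8 gained. COS2, COS3, COS4 and COS7 were called with any library of the 2 groups left out. Set beside swi3del, 9 of 9 members were lower in swi3-E815X, by between -1.48 and -0.75, where 48.0% of genes were called lower and 20.9% higher, or 2147 lower and 2155 higher of all genes under median-ratio scaling in place of 3071 and 1335. In COS1 the means were 80.7 ± 9.1 TPM in swi3-E815X, 63.7 ± 5.66 in SWI3 and 201 ± 7.38 in swi3del.

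**Figure D3:**
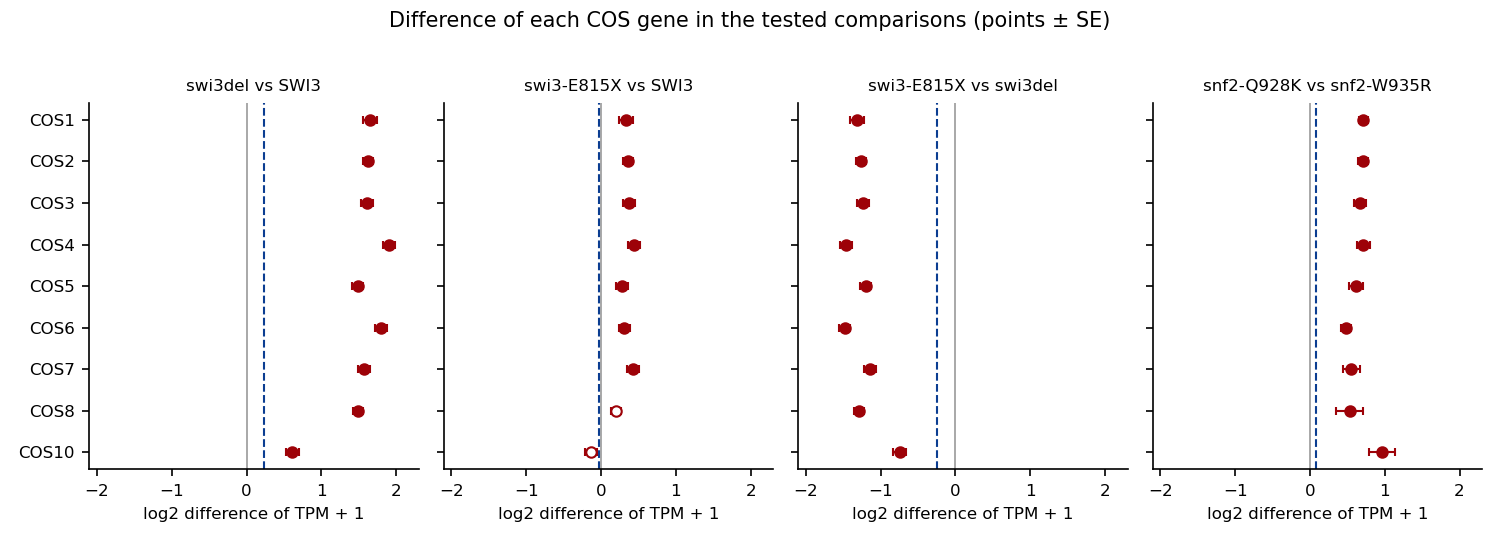
Log2 difference of TPM + 1 for each COS gene in the 4 tested comparisons, as points with bars of 1 SE, filled where the limma adjusted p is under 0.05; the grey line is 0 and the dashed line the median over all genes. All 9 members are filled except COS8 and COS10 in swi3-E815X against SWI3, and COS10 lies nearest to 0 in swi3del against SWI3 and in swi3-E815X against either other group, and farthest from it between the snf2 mutants.

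The 2 snf2 point mutants were compared with each other, and their own libraries took no part in choosing the family. The spread in the limma fit came from all the SNF2 strains, SNF2 and snf2del included. Both point mutants carry 1 changed residue of Snf2, as the labels name them. COS10 stood at 25.2, 23.2 and 26.5 TPM in snf2-W935R and at 42.5, 51.5 and 56.4 in snf2-Q928K, a 2.01-fold difference of the means. COS1 stood at 66.5, 62.4 and 69.9 TPM and at 107, 110 and 110. COS8 stood at 68.8, 66.5 and 70.8 TPM and at 99.4, 96 and 104. In all 9 members every snf2-Q928K library was above every snf2-W935R library, as in 36.7% of all genes (18.0% were apart and lower).

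By limma 9 of 9 members were higher in snf2-Q928K, where 30.0% of genes were called higher and 14.1% lower, or 1486 higher and 1368 lower of all genes under median-ratio scaling in place of 1918 and 900. The median difference was 0.67 over the members and 0.08 over all genes. COS10 differed most, by 0.97 ± 0.17 (adjusted p = 0.000759), and COS6 least, by 0.49 ± 0.07 (adjusted p = 4.28e-05), with COS1 at 0.71 ± 0.06 (adjusted p = 1.45e-06). COS8 differed by 0.53 ± 0.18 (adjusted p = 0.0356). Its call was lost under median-ratio scaling (adjusted p = 0.0665) and with any one library of the 2 mutants left out (adjusted p between 0.0671 and 0.093), and it was firmer with only the 2 mutants in the fit (adjusted p = 0.000106), where the wide spread of COS8 in the SNF2 wild type does not enter.

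Against the SNF2 wild type the members are described without a test, since these libraries brought the family to notice. COS8 stood at 7.8, 16.3 and 11.0 TPM in the 3 SNF2 libraries, and at 216, 186 and 220 in snf2del, a 17.7-fold difference of the means. COS10 stood at 7.22, 12 and 6.41 TPM in SNF2 and at 49.7, 55.9 and 49.6 in snf2del, a 6.06-fold difference. COS1 stood at 28.7, 29.8 and 31.4 TPM in SNF2 and at 211, 205 and 210 in snf2del. In both COS8 and COS10 the second SNF2 library was the highest of the 3, and all 3 stayed below every library of the other 6 groups.

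The median log2 difference of the 9 members from SNF2 was 2.49 (snf2del), 0.77 (snf2-W935R) and 1.43 (snf2-Q928K). Groups were apart and higher in 9 of 9 members in each of these, as they were in 51.2%, 25.4% and 39.3% of all genes, with 26.1%, 19.3% and 22.4% apart and lower. COS8 had the largest difference of the family each time (4.09, 2.51 and 3.05) and COS6 the smallest (2.14, 0.41 and 0.89). Compared with snf2del, 9 of 9 members were lower in snf2-W935R (median -1.64, with 51.3% of all genes apart and lower), and 8 of 9 in snf2-Q928K (median -1.03, with 42.7%), where COS10 overlapped at a difference of -0.05. COS9 differed from SNF2 by 1.18 (snf2del), 0.62 (snf2-Q928K) and 0.27 (snf2-W935R). These comparisons share the SNF2 libraries or the snf2del libraries, so their values are not independent.

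The 2 wild types were not alike in this family, although both have a complete Swi/Snf by genotype. All 9 members were lower in SNF2 than in SWI3 with no overlap, where 14.2% of all genes were apart and lower and 8.76% apart and higher. The log2 difference was -2.52 in COS8, -1.86 in COS10, -1.06 in COS1 and -0.32 in COS6, with a median of -0.76. Set against the SWI3 wild type in place of SNF2, the median of the members was 1.69 in snf2del (9 of 9 apart and higher, with 51.6% of all genes, and 26.4% lower), -0.01 in snf2-W935R (7 overlapping, 1 higher and 1 lower, with 25.5% and 22.5% of all genes) and 0.67 in snf2-Q928K (9 of 9 apart and higher, with 38.1%, and 22.4% lower). The difference of COS8 in snf2del went from 4.09 against SNF2 to 1.57 against SWI3, and that of COS10 from 2.51 to 0.65. The difference of the family in snf2-W935R was thus present against one wild type and about 0 against the other. Between the 2 deletions the members differed by a median of 0.08, with 7 of 9 overlapping and 2 higher in snf2del, where 9.76% of all genes were apart and higher and 4.81% lower. Strain set and restored gene go together here and cannot be told apart.

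Shares within the family show which members moved unequally. COS8 made up 17.3% ± 0.174 of the summed level of COS1 to COS8 in SWI3 and between 15.4% and 16.6% on average in swi3-E815X, swi3del, snf2-W935R, snf2-Q928K and snf2del, but 3.74%, 6.6% and 4.91% in the 3 SNF2 libraries. That share restates the low level of COS8 in SNF2 for which the family was chosen. COS10 made up 7.73%, 7.34% and 7.64% of the 9 members in SWI3, 5.42%, 5.55% and 5.84% in swi3-E815X and 3.68%, 4.12% and 3.67% in swi3del. Its share fell by steps without overlap in the SWI3 strains. In the SNF2 strains the share of COS10 was 6.33%, 7.62% and 8.2% in snf2-Q928K, above every library of snf2-W935R (5.49% to 5.97%), snf2del (3.48% to 4.3%) and SNF2 (2.79% to 4.63%). Across the 21 libraries the log2 levels of COS1 to COS7 correlated with each other at r between 0.952 and 0.999 (21 pairs), COS8 with them at 0.84 to 0.95, and COS10 with the others at 0.74 to 0.95, as a description over libraries that share groups and reads.

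**Figure D4:**
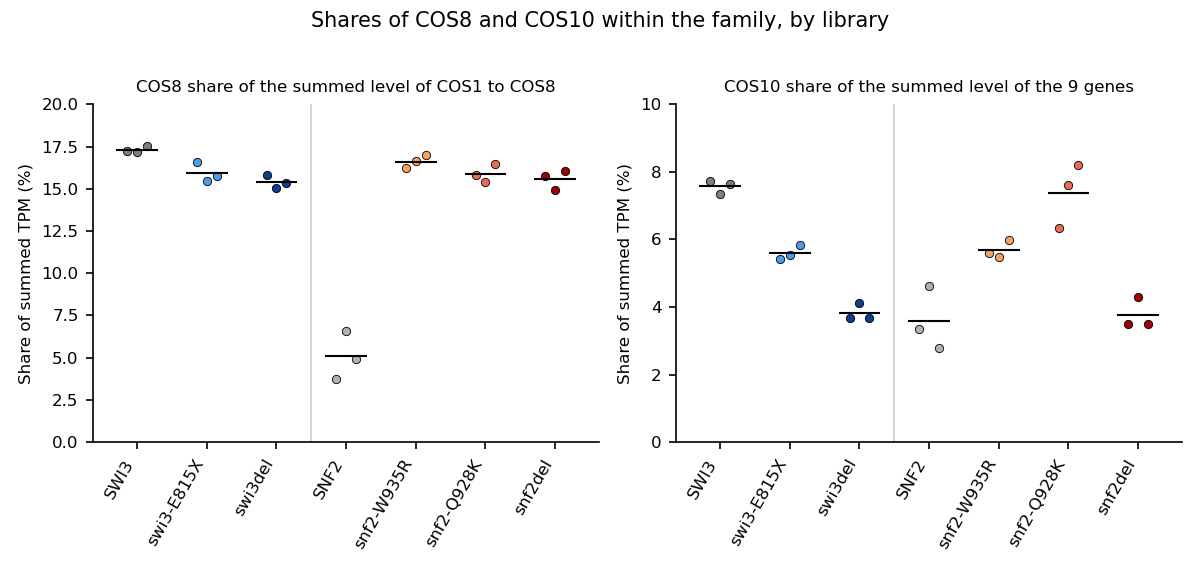
Share of COS8 in the summed TPM of COS1 to COS8 (left) and of COS10 in the summed TPM of the 9 members (right), in percent, with each library as a point and the group mean as a line. COS8 lies between 14.9% and 17.5% in 6 groups and at most at 6.6% in SNF2, and COS10 is lowest in swi3del, SNF2 and snf2del.

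Other genes at chromosome ends gave a setting for these values. Within 20 kb of an end 219 further genes were in the table, COS9 among them, and 216 were tested in the SWI3 strains. In swi3del 159 of them rose and 18 fell, where 47.4% and 24.3% of all genes did, with a median of 0.77 against 0.23 for all genes, and 44 of 216 (20.4%) reached the median of the COS members. DSF1, a gene related to mannitol dehydrogenases (0.691 to 34.3 TPM), and THI5, an enzyme of thiamine precursor synthesis (1.27 to 20.4 TPM), rose most, and PHO12 and PHO11, secreted acid phosphatases, fell most, from 600 and 488 TPM to 12.4 and 10.2. PHO11 and PHO12 are close copies that can share reads. Other end genes, such as PAU14 and PAU1, are near-identical copies too, so the counts may not all be of separate readings. In swi3-E815X 13 of 216 rose and 11 fell (3.06% and 5.77% of all genes), with a median of 0.11, and 36 (16.7%) reached the members' median. Between the snf2 point mutants 118 of 215 were higher in snf2-Q928K and 4 lower (30.0% and 14.1% of all genes), with a median of 0.38 against 0.08, and 55 (25.6%) reached the members' median. In SNF2 against SWI3 105 of 218 end genes were apart and lower and 7 higher (14.2% and 8.76% of all genes), with a median of -0.25.

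**Figure D5:**
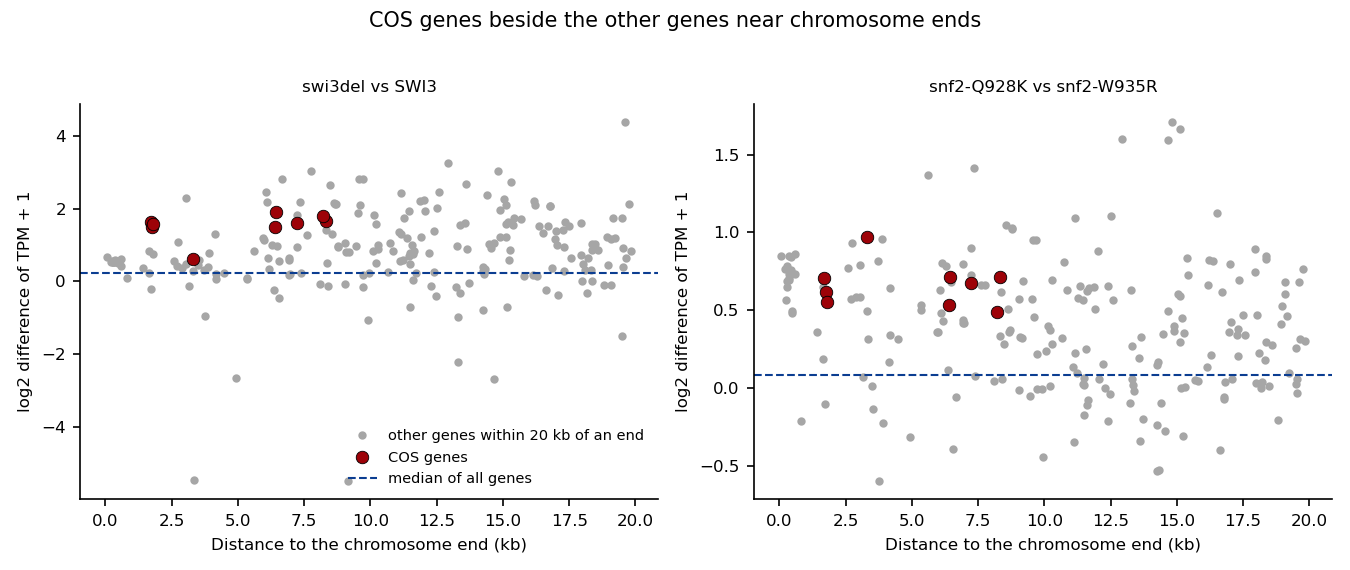
Log2 difference of TPM + 1 against distance to the chromosome end in kb, for the 9 COS members and for the other genes within 20 kb of an end (COS9 among them), with the median of all genes dashed; left, swi3del against SWI3, and right, snf2-Q928K against snf2-W935R. On the left COS1 to COS8 lie above the median of the other end genes (0.77) and COS10 below it (0.61), on the right all 9 members lie above it (0.38), and in neither panel do they stand clear of the cloud.

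The nearest measured genes on either side of the members numbered 15. In swi3del 13 of them rose and 1 fell (47.4% and 24.3% of all genes), with a median of 0.57 against 0.23. In snf2-Q928K 11 were higher than in snf2-W935R and 0 lower (30.0% and 14.1% of all genes). The 15 rows may not be separate readings. In swi3del YRF1-6, YRF1-3 and YML133C rose by 0.56, 0.54 and 0.57, and MPH2 and MPH3 by 1.15 and 1.20. Whether these rows share reads was not tested. In swi3-E815X 2 were called higher (3.06% of all genes), DDI2 and DDI3, near-identical copies whose rows may count the same reads. Both calls were lost in 5 of the 6 fits with 1 library left out (adjusted p between 0.0859 and 0.147), all but that without SWI3 replicate 2, and their calls in snf2-Q928K were lost under median-ratio scaling (adjusted p = 0.0618 and 0.0813). COS8 lies between YHL049C, on the side of the end with a gap of 1859 bases, and ARN2, a transporter of iron-siderophore complexes, 804 bases further in. In SNF2 YHL049C had 4.99 ± 0.844 TPM against 11.0 ± 0.663 in SWI3, and ARN2 had 46.0 ± 6.13 against 37.1 ± 1.49. The gene outside COS8 was thus lower in SNF2, as COS8 was, and the gene inside it was not. A lower level in SNF2 was particular neither to that end nor to the outer side. YRF1-6, YML133C, YFL064C and YRF1-3, on the end side of COS1, COS3, COS4 and COS6, also had lower means in SNF2. YFL064C had 4.68 TPM there against 14.5 in SWI3. Whether these rows and YHL049C share reads was not tested. On the inner side YML131W had 13.95 TPM in SNF2 against 25.39 in SWI3, and PAU12 had 3.445 against 6.923. ARN2 was the only inner neighbour with a higher mean in SNF2. Of all 15 neighbours 10 were apart and lower in SNF2 and 1 higher (14.2% and 8.76% of all genes). In swi3del both neighbours of COS8 rose by less than COS8. YHL049C rose by 0.31 ± 0.12 (adjusted p = 0.0355) and ARN2 by 0.49 ± 0.12 (adjusted p = 0.00276). Neither call held under median-ratio scaling (adjusted p = 0.524 and 0.0775). Beside COS10, YNR075C-A lies 470 bases towards the end and rose by 1.07 ± 0.13 in swi3del (adjusted p = 1.18e-05), more than COS10 itself. Its level was 9.45 ± 2.79 TPM in SNF2 against 23.3 ± 2.84 in SWI3, and it was 0.94 ± 0.17 higher in snf2-Q928K than in snf2-W935R (adjusted p = 0.00063), close to the value of COS10. BSC5, 17323 bases inward of COS10, rose by 0.53 ± 0.18 in swi3del (adjusted p = 0.0171; 0.104 under median-ratio scaling).

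The genes most alike in pattern to COS8 over the 21 libraries, among those with a mean of at least 5 TPM, were ADH7, an alcohol dehydrogenase (r = 0.97), YIR042C (0.96), SNO2 (0.96), PAU11 (0.95) and SNO3 (0.95). For COS10 they were PAU14 (0.97), PAU1 (0.97), its neighbour YNR075C-A (0.96), PAU11 (0.95) and ADH7 (0.95). All 8 genes lie within 12.21 kb of a chromosome end. Besides the members, 219 genes of the table lie within 20 kb of an end, among 5948 names placed in the annotation. ADH7 stood at 0.585 ± 0.137 TPM in SNF2, 15.9 ± 0.523 in SWI3 and 39.9 ± 1.38 in snf2del, and PAU14 at 7.43 ± 1.3, 23.2 ± 1.58 and 39.6 ± 5.48. PAU14 and PAU1 are near-identical copies, so their rows may count the same reads. Whether SNO2 and SNO3 also share reads was not tested. The likeness rests on libraries that share groups, and no p is given. Those libraries include SNF2, where COS8 and COS10 had been seen to be low, so genes that are low in SNF2 are favoured.

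Lists of genes tied to the family by sequence, place or task are described by their counts. Of the DUP240 genes, relatives of COS in sequence, 9 of 10 rose in swi3del and 0 fell (median 0.56), where 47.4% of all genes rose and 24.3% fell (median 0.23). The number called lay between 7 and 9 over the alternative settings, and whether DUP240 rows share reads was not tested. YHL044W rose from 14.6 ± 1.65 to 46.3 ± 4.68 TPM and YCR007C from 8.48 ± 2.26 to 16.7 ± 2.3. Of the seripauperins, cell wall proteins of the PAU family that also lie at chromosome ends and share reads, 14 of 15 tested rose and 1 fell (median 1.27). PAU5 rose from 1.49 ± 0.534 to 18.9 ± 2.05 TPM and PAU2 from 6.97 ± 2.4 to 32.4 ± 5.28, while PAU24, the inner neighbour of COS2, fell from 4.51 ± 1.47 to 1.89 ± 1.06 (adjusted p = 0.0209) with overlapping libraries, and its call was lost in 3 of the 6 fits with 1 library left out.

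Among 16 genes that silence or protect chromosome ends 5 rose and 5 fell in swi3del (median 0.00), against 47.4% and 24.3% of all genes (median 0.23), or 2 and 8 under median-ratio scaling. SIR2, the NAD-dependent histone deacetylase, fell from 31.9 ± 2.24 to 17.0 ± 1.19 TPM and RAP1, which binds the telomere repeats, from 55.0 ± 3.32 to 37.1 ± 1.43, while SIR1, which helps to start silencing, rose from 8.35 ± 0.328 to 16.8 ± 1.85 and YKU70, a subunit of the Ku end-binding complex, from 16.2 ± 1.13 to 26.0 ± 2.1. In swi3-E815X SIR2 stood at 30.9 ± 2.52 TPM. Among the SNF2 strains it went from 35.0 ± 1.51 TPM in the wild type to 27.5 ± 1.74 in snf2-W935R, 20.7 ± 1.43 in snf2del and 16.6 ± 0.559 in snf2-Q928K. RAP1 and SIR1, of the same list, took other orders, with RAP1 at 59.9 ± 2.04 TPM in snf2-Q928K and 38.8 ± 1.01 in snf2del and SIR1 at 11.0 ± 0.482 and 15.4 ± 2.27. The part of these genes in the COS levels was not tested.

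Of 14 genes of NAD synthesis and salvage 8 rose and 4 fell in swi3del (median 0.45), shares near the 47.4% and 24.3% of all genes (median 0.23). BNA2, which opens the pathway from tryptophan to NAD, rose from 8.88 ± 0.652 to 93.8 ± 3.56 TPM and BNA5, a later enzyme of that pathway, from 31.2 ± 2.62 to 108 ± 9.28. NMA1, which joins the nucleotide to adenylate, fell from 80.9 ± 1.1 to 55.9 ± 5.94 TPM and BNA7 from 58.3 ± 1.65 to 41.3 ± 1.44. Of 31 genes of multivesicular body sorting 24 rose and 2 fell (median 0.52; 47.4% and 24.3% of all genes), or 18 and 3 under median-ratio scaling. VPS27, of the ESCRT-0 complex that binds ubiquitinated cargo, rose from 26.5 ± 1.8 to 62.0 ± 3.48 TPM and CSR2, an arrestin-related adaptor, from 3.56 ± 0.224 to 24.9 ± 2.23, while RFU1, an inhibitor of the deubiquitinase Doa4, fell from 165 ± 6.55 to 92.1 ± 4.27 and VPS25, of ESCRT-II, from 35.5 ± 3.02 to 29.2 ± 2.25. The call of VPS25 was lost in 3 of the 6 fits with 1 library left out (adjusted p between 0.0548 and 0.0792) and with all 21 libraries in the fit (0.0564).

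In swi3-E815X against SWI3 limma called 4 genes of the NAD list higher, BNA2 among them (0.91 ± 0.09, adjusted p = 1.83e-05), and 1 lower. It called 0 of 10 DUP240 genes (3 at an unadjusted p under 0.05), 0 of 15 seripauperins (3), 0 of 16 silencing genes (3) and 0 of 31 sorting genes (8). In that comparison only 3.06% of all genes were called higher and 5.77% lower, so 0 calls in a short list says little. Between the snf2 point mutants 2 of 10 DUP240 genes, 8 of 15 seripauperins, 2 of 16 silencing genes, 8 of 14 NAD genes and 13 of 31 sorting genes were higher in snf2-Q928K, and 1, 0, 3, 1 and 2 lower, where 30.0% of all genes were higher and 14.1% lower.

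The authors' deposited tables of comparisons list COS1, COS4, COS5, COS6, COS8, COS9 and COS10 and not COS2, COS3 or COS7. Over genes of at least 10 TPM the mean level in the authors' deposited tables was a median of 0.975 to 0.994 times the mean TPM of the same libraries, so that column follows the TPM scale closely. In the authors' deposited table for swi3del COS6 had a log2 fold change of 1.57, COS1 of 1.38 and COS8 of 1.26 with adjusted p under 0.05, and COS10 of 0.38 with an adjusted p of 0.392. COS10 was thus called higher by limma on TPM and was not in the authors' deposited table. In the authors' deposited table for swi3-E815X none of the 6 listed members passed, with COS4 at 0.49 and COS6 at 0.35 (adjusted p = 0.903). Of the 7 members that limma called there, COS1, COS4, COS5 and COS6 were thus not called in that table. The other members called, COS2, COS3 and COS7, are not listed in it and cannot be compared. In the authors' deposited table for snf2-W935R COS1 and COS8 passed (1.07 and 2.49), COS5 and COS6 did not (0.67 and 0.38), and COS4 (0.76) and COS10 (1.52) have no adjusted p. The authors' deposited table for snf2-Q928K has all 6 listed members higher, from 0.79 in COS6 to 2.96 in COS8.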

How the data were processed

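Polyadenylated RNA was made into directional libraries, per the labels' protocols. Per the submitters' processing notes the build was sacCer3 (R64) and the tools were DESeq2, HISAT2 and StringTie, without versions; how strand and reads that fit several places were treated is not given in the sources used here. The deposited table holds TPM for 6407 genes by the authors' tools, per the file headers, with sums per library of 960811 to 1000396 and 0 columns left unused. The authors' deposited comparison tables hold a mean signal, a log2 fold change with its standard error, a test score and p-values, per the file headers; what these were computed from is not stated.

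Differences are from limma 3.58.1 (trended, robust; R 4.3.3, statmod 1.5.0) on log2(TPM + 1), the 1 being the pseudocount, after leaving out genes that did not reach 1 TPM in 3 or more libraries. The SWI3 strains, the SNF2 strains, and all 21 libraries for comparisons across them, were fitted apart. A call ("rose", "fell", "higher", "lower" with a count of genes called) is a two-sided Benjamini-Hochberg adjusted p under 0.05 over all genes tested; "apart" means that the 3 libraries of one group all lie beyond those of the other. The fit was tested on simulated data, whose outcome is not given here. Each simulated gene was drawn independently, so that test does not cover rows that share reads. Since the units are TPM, the TPM branch of the design was used, with no count model.

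Members, lists and tests were chosen with earlier results of these data known. Genes named are all members, the 5 genes most like COS8 and COS10, from each list the 2 largest rises and falls among calls in swi3del, the nearest measured genes, SWI3 and LEU2; COS9 was added, and SIR2, RAP1, SIR1 and BNA2 outside swi3del, after their values were seen. Sequences and positions are from the R64 RefSeq annotation (5948 names matched, 459 did not), aligned with MAFFT 7.526 and Biopython 1.88. Figures used Python 3.11.15, numpy 2.4.6, pandas 2.3.3 and matplotlib 3.10.9. Alternatives were other pseudocounts, no filter, median-ratio scaling, a replicate block, other sets of libraries and each library left out.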

Additional observations from a re-analysis of the deposited data

Results flagged for a closer look

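Against its own wild type, COS10 took a different sign in swi3-E815X than in the snf2 point mutants. In swi3-E815X against SWI3 its log2 difference was -0.14 (-0.135 before rounding) and did not pass the limma test (adjusted p = 0.396). Every mutant library was below every wild-type library, but only by 31.47 TPM against 31.49 at the closest. In snf2-W935R against SNF2 the log2 difference was 1.49 and in snf2-Q928K against SNF2 2.46, with every mutant library above every wild-type library. The difference between these effects was not tested, and COS10 had been seen to be low in SNF2 when the family was chosen. The SNF2 wild type, in which COS10 stood at 8.54 ± 3.01 TPM (SD, n = 3), entered the latter 2 values, and against SWI3 (32.6 ± 1.09 TPM) the differences were -0.37 in snf2-W935R and 0.60 in snf2-Q928K.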

How the results depend on the processing

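Over the members in the tested comparisons 441 of 468 alternative values kept direction and call, 26 kept direction and lost the call, 1 gained it (COS8 in swi3-E815X against SWI3 without swi3-E815X replicate 3, 0.25, adjusted p = 0.0478) and 0 reversed. The members called in swi3-E815X against SWI3 numbered 4 to 7 with a library left out. A pseudocount of 5 moved the described medians to 2.16 (snf2del against SNF2), 1.27 (snf2-Q928K against SNF2), -0.98 (snf2-Q928K against snf2del), 1.58 (snf2del against SWI3) and 0.60 (snf2-Q928K against SWI3). Median-ratio scaling moved the same 5 to 2.24, 1.32, -0.88, 1.43 and 0.56, and snf2-W935R against snf2del to -1.40. It moved the summed level to 455 TPM in SWI3, 570 in swi3-E815X, 1187 in swi3del, 665 in snf2-Q928K, 456 in snf2-W935R and 1219 in snf2del. The scaling divides each library by a factor, which was 0.934 to 0.966 in SWI3 and 1.09 to 1.13 in swi3del. Why the factors differ was not tested. With a library left out the median of snf2-Q928K against snf2del lay between -1.07 and -0.998.

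The replicate numbers were not shown to pair the samples. Same-numbered libraries correlated in their deviations at -0.01 to 0.19 in the SWI3 strains (3 of 9 pairs over 0.1). In the SNF2 strains they did so at -0.18 to 0.17 (1 of 18). Medians for same and other numbers were 0.055 and -0.021 in the SWI3 strains, and -0.014 and 0.012 in the SNF2 strains. With 3 libraries per group to match, 11 of 18 and 10 of 36 correlated best with their own number. With the replicate block COS1 was not called in swi3-E815X against SWI3 (adjusted p = 0.0555) nor COS8 in snf2-Q928K against snf2-W935R (adjusted p = 0.0542), so that 6 and 8 members were called. All-gene calls under the block were 3049 higher and 1578 lower in swi3del, and 231 and 367 in swi3-E815X. Of the lists in swi3-E815X, the sorting genes went from 0 calls to 4 lower with all 21 libraries in the fit. TPM gives no depth, so no counting error can be set on any level.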
